A study of Mus musculus with 12 samples.

Results

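The transcription factor NRF2 and its antioxidant programme were followed in mouse embryonic fibroblasts (MEFs), connective tissue cells grown from embryos, through 9 genes: Nfe2l2, Keap1, Hmox1, Nqo1, Gclc, Gclm, Gsr, Srxn1 and Txnrd1. The genes were taken by symbol from the deposited count table, and all 9 were found among its 23366 gene symbols and passed the filter on low counts. Keap1 and Txnrd1 have 4 transcript rows each, of which the row with the highest total stands for the gene. RNA of 4 groups of cells was sequenced, with 2 libraries per group. KO-GS cells carry a knockout of Carm1, which encodes an arginine methyltransferase that acts as a transcriptional coactivator, and were kept for 18 h in glucose-free medium with 10% dialyzed serum. KO cells carry the same knockout and were sampled in growth medium with 10% fetal bovine serum. WT-GS cells are wild type and were starved for 18 h like the KO-GS cells. WT cells are wild type and were sampled in growth medium. All 4 groups are C57BL/6 cells at passages 3 to 5. How the knockout allele was made, and from how many embryos the cells of each genotype came, is not given in the labels, so the knockout cannot be told apart from other differences between the cultures. The starved cells also differ from the others in serum and in time since the change of medium, and these cannot be told apart from the lack of glucose.

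NRF2, the product of Nfe2l2, is held in the cytoplasm by KEAP1, which presents it to a CUL3 ubiquitin ligase for destruction. Oxidants and electrophiles modify KEAP1, and NRF2 then accumulates, enters the nucleus and binds antioxidant response elements (AREs) together with a small MAF protein. Its targets make glutathione, reduce oxidised thiols through glutathione and thioredoxin, detoxify quinones and degrade heme. NRF2 is controlled largely at the level of the protein, so the level of its own mRNA is not a measure of its activity.

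The 9 genes did not change as a block. Hmox1, which encodes the heme-degrading enzyme heme oxygenase 1, rose in both genotypes during starvation, 7.44-fold in KO-GS against KO cells and 2.77-fold in WT-GS against WT cells, and the 2 responses differed. Srxn1, which encodes the sulfiredoxin that repairs overoxidised peroxiredoxins, was higher in knockout cells in either medium, 6.38-fold in KO-GS against WT-GS cells and 4.09-fold in KO against WT cells. Gclc, the catalytic subunit of the enzyme that starts glutathione synthesis, rose 2.35-fold in WT-GS against WT cells and was not called in KO-GS against KO cells. Gclm and Txnrd1 passed the test in no comparison.

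A gene is called here when its Benjamini-Hochberg adjusted p from edgeR's quasi-likelihood test, fitted over 13882 genes, is under 0.05. In KO-GS against KO cells 1 of the 9 genes was called, as higher, against 18.2% of all genes tested (8.44% higher and 9.78% lower). In WT-GS against WT cells 4 of 9 were called, 2 higher and 2 lower, against 32.9% of all genes (14.8% higher and 18% lower). In KO-GS against WT-GS cells 4 of 9 were called, 3 higher and 1 lower, against 54.6% of all genes (27.8% higher and 26.8% lower). In KO against WT cells 4 of 9 were called, 2 in each direction, against 44% of all genes (23.4% higher and 20.6% lower). The starvation response in KO cells minus that in WT cells was called for 2 of 9, 1 in each direction, against 13.3% of all genes (7.42% higher and 5.91% lower). Read against these shares, the counts show nothing particular to the 9 genes. The median log2 fold change of the 9 was -0.10 in KO-GS against KO cells, -0.11 in WT-GS against WT cells, 0.23 in KO-GS against WT-GS cells and 0.15 in KO against WT cells, while the medians of all genes lay between -0.02 and 0.00. The sign of the first and the last depended on the KO libraries, with 0.15 without KO replicate 1 and -0.06 without KO replicate 2 in KO-GS against KO cells, and -0.04 and 0.17 without them in KO against WT cells.

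**Figure D1:**
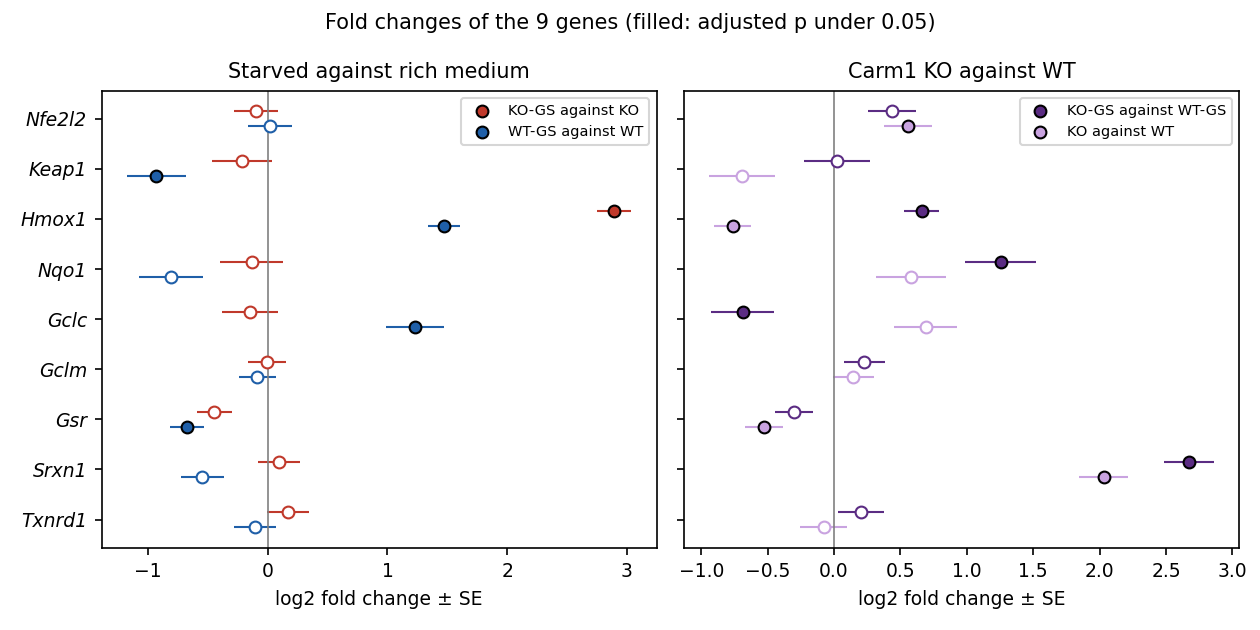
Log2 fold changes (x axis) of the 9 genes (y axis), with bars of 1 SE, for starvation in each genotype (left) and for knockout against wild type in each medium (right). Filled symbols have an adjusted p under 0.05; Hmox1 lies farthest right for starvation (2.90 in KO-GS against KO cells and 1.47 in WT-GS against WT cells), and Srxn1 for the knockout (2.67 in KO-GS against WT-GS cells and 2.03 in KO against WT cells).

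The libraries held between 8447016 and 28155438 gene counts. Levels are CPM (counts scaled to a library of fixed size), in which 3 counts amount to 0.369 in the shallowest library and 0.104 in the deepest. They are given without gene length, so they are compared between libraries and not between genes. Carm1 reads were lower in the knockout libraries, at 56.3 ± 3.35 CPM in KO-GS and 59.4 ± 16.0 CPM in KO cells, against 169.9 ± 8.005 CPM in WT-GS and 205.7 ± 2.10 CPM in WT cells (SD, n = 2 each). KO replicate 1, the library with the fewest counts, lay far from KO replicate 2: the log2 ratio of the replicates had an SD over genes of 0.908 in KO cells, against 0.360 in KO-GS, 0.337 in WT-GS and 0.348 in WT cells. Called differences of the 9 genes that rest on the KO group, and the medians of gene lists, are therefore also given without each KO library in turn, where the remaining KO library is assumed to vary like the other groups. Of 9 fibroblast markers, Dcn had 15881 to 31222 counts and Thy1 1096 to 4498 in each knockout library, against 8 to 22 and 1 to 6 in each wild-type library, and Lum had 18 to 92 counts against 0. Col1a1 went the other way, at 646 CPM in KO-GS and 1005 CPM in KO cells, against 1453 CPM in WT-GS and 2791 CPM in WT cells (means, n = 2 each). The summed level of all 9 overlapped between genotypes in growth medium, at 6453 to 8571 CPM in KO and 7613 to 7635 CPM in WT cells. After starvation it did not, at 6122 to 6347 CPM in KO-GS and 4852 to 5271 CPM in WT-GS cells. The 5 endothelial markers summed to 242 to 245 CPM in KO-GS and 132 to 158 CPM in KO cells, nearly all from Cdh5, with Tie1 at 0 in every library, against 3.79 to 5.02 CPM in WT-GS and 2.09 to 2.28 CPM in WT cells. Kdr of the same list was lower in knockout cells, at 0.0831 CPM in KO-GS and 0 in KO cells, against 3.98 CPM in WT-GS and 1.80 CPM in WT cells. The 7 leukocyte and macrophage markers summed to 25.8 to 28.6 CPM in KO-GS and 16.98 to 36.6 CPM in KO cells. They summed to 7.83 to 7.89 CPM in WT-GS and 5.58 to 5.67 CPM in WT cells. Cd14 was the largest part in knockout cells, with means of 19.1 CPM in KO-GS and 17.5 CPM in KO cells. Of the 6 tested, 5 were called higher and 1 lower in KO-GS against WT-GS cells, and 4 higher in KO against WT cells. Cd68 among them averaged 1.48 CPM in KO-GS and 1.60 CPM in KO cells, against 5.04 CPM in WT-GS and 2.25 CPM in WT cells. These markers move with every knockout comparison below, and their part in the results was not tested. The 5 epithelial markers summed to 1.72 to 2.81 CPM in KO-GS and 1.48 to 2.32 CPM in KO cells. In WT-GS cells they summed to 2.91 to 3.88 CPM and in WT cells to 1.44 to 1.93 CPM. Of the 3 tested, 1 was called higher and 2 lower in KO-GS against WT-GS cells, and 1 each way in KO against WT cells. The 3 muscle markers summed to 4.49 to 5.64 CPM in KO-GS and 5.17 to 5.61 CPM in KO cells. These sums were 0.159 to 1.25 CPM in WT-GS and 1.49 to 1.75 CPM in WT cells. In such bulk libraries fewer cells of a type and less RNA per cell cannot be told apart.

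**Figure D2:**
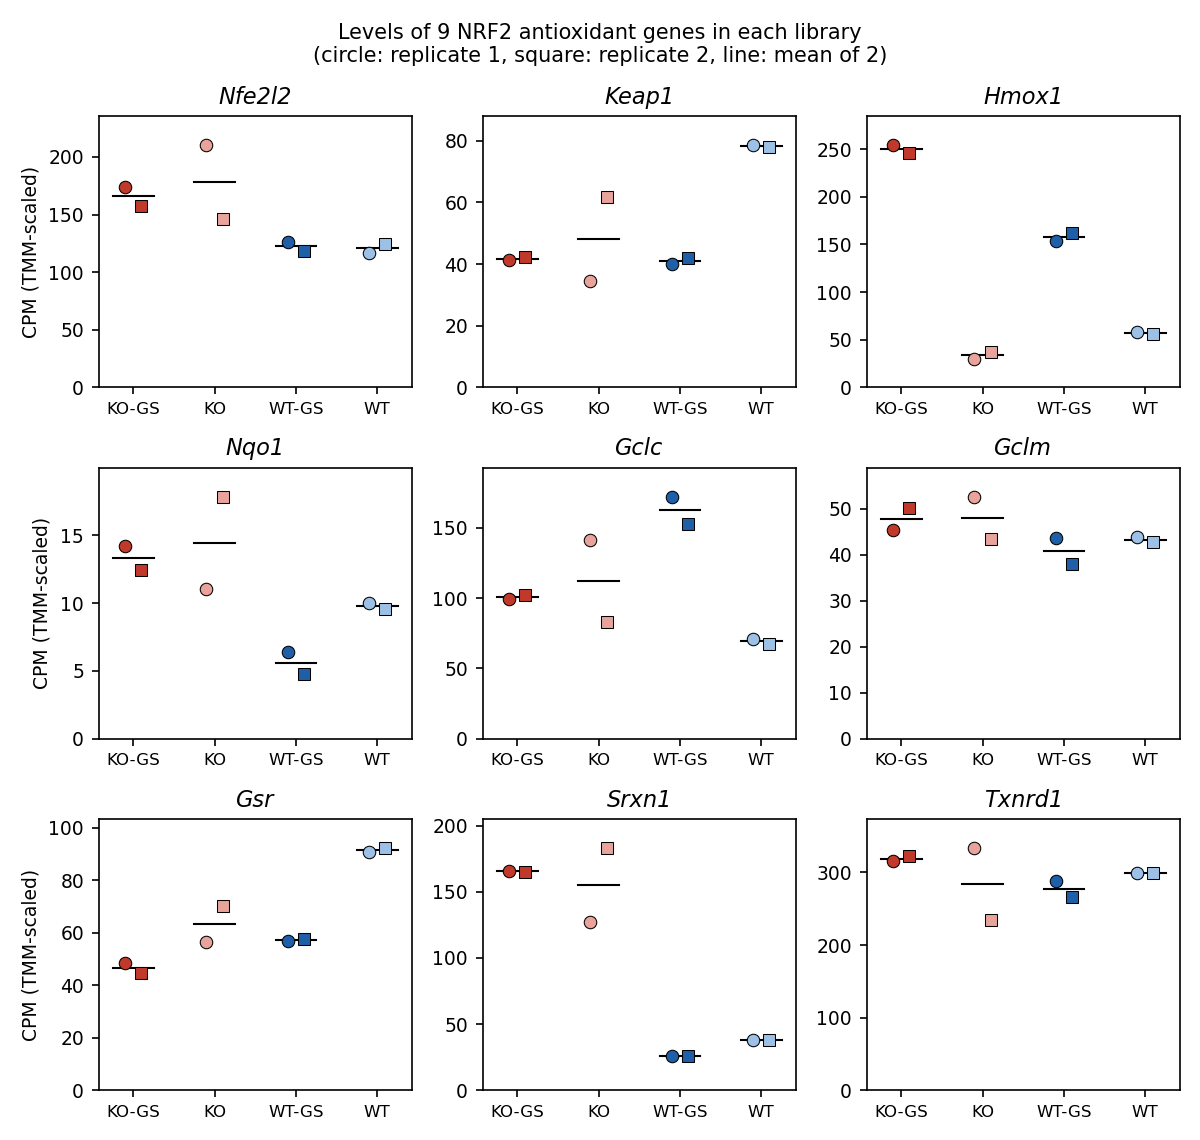
Level of each of the 9 genes (y axis, CPM from 0) in the 8 libraries, by group (x axis: KO-GS, KO, WT-GS, WT); circles are replicate 1, squares replicate 2 and lines the mean of 2. Srxn1 lies at 127 CPM or more in all 4 knockout libraries and at 38.1 CPM or less in all 4 wild-type libraries, and the 2 KO libraries lie apart for most genes.

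NRF2 acts through AREs, often near the starts of its targets, so the matches to known motifs in their promoters are shown. RefSeq promoter sequences (build GRCm38.p6, 250 bases before to 50 after the start) were given for 6 of the 9 genes, with 3 starts for Txnrd1. Hmox1, Gclc and Gsr had no entry. Both strands were searched for the ARE core TGACNNNGC, for TGANTCA, the AP-1 element, and for TGANTCAGC, which holds a TGANTCA and can overlap the ARE core. Of 32851 promoters of this length, 12.4% held TGACNNNGC, 7.81% held TGANTCA, 1.19% held TGANTCAGC and 0.460% held 2 or more TGANTCA. The stretches around the matches are given 5′ to 3′ in the direction of the gene, with the matching bases in capitals: Nfe2l2 at chr2:75704880-75704913 (minus strand), Gclm at chr3:122245408-122245446 (plus strand), Srxn1 at chr2:152105407-152105502 (plus strand) and the second Txnrd1 start at chr10:82859099-82859137 (plus strand).
Nfe2l2: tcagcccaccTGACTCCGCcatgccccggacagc
Gclm: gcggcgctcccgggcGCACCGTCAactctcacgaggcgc
Srxn1: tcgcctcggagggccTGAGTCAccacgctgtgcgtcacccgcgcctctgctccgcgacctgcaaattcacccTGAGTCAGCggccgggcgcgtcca
Txnrd1: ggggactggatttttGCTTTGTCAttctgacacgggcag
In the Srxn1 stretch, the promoter of the gene with the largest knockout difference among the 9, TGAGTCA stood at -102 to -96 and again within TGAGTCAGC at -45 to -37, counted from the start. A further match, GCTAGGTCA, is the ARE core on the other strand at positions 29 to 37. Nfe2l2, Gclm and Txnrd1 held 1 match each to the ARE core, in Gclm and Txnrd1 on the other strand. The windows of Nqo1 and Keap1 held none of these letters, and a match or its absence in such a window is a description and no measure of binding.

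Nfe2l2, which encodes NRF2 itself, had 174 and 158 CPM in KO-GS cells, 210.05 and 146 CPM in KO cells, 127 and 118 CPM in WT-GS cells, and 117 and 125 CPM in WT cells. All knockout libraries lay above all wild-type libraries, the 2 knockout groups overlapped each other, and so did the 2 wild-type groups. The gene was 1.47-fold higher in KO against WT cells (log2 0.56 ± 0.18, adjusted p = 0.043). That call held in 6 of 18 alternative analyses, and the log2 value was 0.23 without KO replicate 1 and 0.79 without KO replicate 2. In KO-GS against WT-GS cells the log2 difference was 0.44 ± 0.18 (adjusted p = 0.0777), called as higher in 4 of 18 alternatives. Of these, 2 were fits without a KO library. The others, library quality weights and a fit of only the groups compared, called 80.5% and 82.4% of all genes. The log2 difference was -0.10 ± 0.18 in KO-GS against KO cells and 0.02 ± 0.18 in WT-GS against WT cells, neither of them called. The direction of the first depended on the KO library kept, at 0.20 without KO replicate 1 and -0.33 without KO replicate 2.

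Keap1, the repressor that targets NRF2 for destruction, had 41.2 and 42.2 CPM in KO-GS cells, 34.6 and 61.8 CPM in KO cells, 39.9 and 42.1 CPM in WT-GS cells, and 78.5 and 78.0 CPM in WT cells. The WT libraries stood highest, and the other 3 groups overlapped. Keap1 fell by 0.93 ± 0.25 on the log2 scale in WT-GS against WT cells (adjusted p = 0.0267), a 1.91-fold lower level. The call was lost when any one WT, WT-GS or KO-GS library was left out (adjusted p = 0.0594 to 0.156), with log2 values between -0.97 and -0.89. In KO against WT cells the log2 difference was -0.69 ± 0.25 (adjusted p = 0.0575), at -0.38 without KO replicate 1 and -1.19 without KO replicate 2. It was called as lower in 8 of 18 alternatives. The KO-GS and WT-GS levels differed by 0.02 ± 0.25 on the log2 scale. Keap1 was not called in KO-GS against KO cells (log2 -0.22 ± 0.25). Its direction there depended on the KO library kept, at -0.55 without KO replicate 1 and 0.28 without KO replicate 2.

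Hmox1 had 254 and 246 CPM in KO-GS cells, 30.1 and 36.8 CPM in KO cells, 154 and 162 CPM in WT-GS cells, and 57.9 and 56.2 CPM in WT cells. The 4 groups did not overlap, and the order was KO-GS, WT-GS, WT, KO. Heme oxygenase 1 breaks heme down to biliverdin, carbon monoxide and iron, and its gene answers to several stress pathways besides NRF2, and is held back by the repressor BACH1. Hmox1 rose by 2.90 ± 0.14 on the log2 scale in KO-GS against KO cells (adjusted p = 0.000251). It rose by 1.47 ± 0.14 in WT-GS against WT cells (adjusted p = 0.000561). The response in KO cells exceeded that in WT cells by 1.43 ± 0.19 (adjusted p = 0.00505), a value of 1.34 without KO replicate 1 and 1.59 without KO replicate 2. Both ends of the range contributed: Hmox1 was 1.58-fold higher in KO-GS against WT-GS cells (log2 0.66 ± 0.13, adjusted p = 0.00481) and 1.70-fold lower in KO against WT cells (log2 -0.76 ± 0.14, adjusted p = 0.00386). The difference in KO against WT cells was -0.67 without KO replicate 1 and -0.93 without KO replicate 2, and it was called in 16 of 18 alternatives. The rise in KO-GS against KO cells was 2.79 and 3.06 without those libraries. It lost its call in an edgeR fit of those 4 libraries alone (adjusted p = 0.0583).

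Gclc encodes the catalytic subunit of glutamate-cysteine ligase, the rate-limiting enzyme of glutathione synthesis. It had 99.4 and 102 CPM in KO-GS cells, 142 and 82.7 CPM in KO cells, 172 and 153 CPM in WT-GS cells, and 71.0 and 67.7 CPM in WT cells. WT-GS cells stood highest and WT cells lowest, and the KO-GS values lay between the 2 KO values. Gclc rose in WT-GS against WT cells by 1.23 ± 0.24 on the log2 scale (adjusted p = 0.00825), and the call was lost without WT-GS replicate 1 or either WT library (adjusted p = 0.0618 to 0.0724). In KO-GS against KO cells the log2 difference was -0.15 ± 0.24 (adjusted p = 0.705), and its direction depended on which KO library was kept, at 0.31 without KO replicate 1 and -0.48 without KO replicate 2. The response in KO cells minus that in WT cells was -1.38 ± 0.33 (adjusted p = 0.0386). Without KO replicate 1 this difference was -0.90, and without KO replicate 2 it was -1.71. Leaving out any WT, WT-GS or KO-GS library ended the call (adjusted p = 0.12 to 0.157). Gclc was 1.61-fold lower in KO-GS against WT-GS cells (log2 -0.69 ± 0.24, adjusted p = 0.0414), called in 10 of 18 alternatives. In KO against WT cells the log2 difference was 0.69 ± 0.24 (adjusted p = 0.0504), at 0.21 without KO replicate 1 and 1.02 without KO replicate 2. It was called as higher in 5 of 18 alternatives.

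Gclm encodes the modifier subunit of the same enzyme and was not called in any of the 5 comparisons. It was called as higher in KO-GS against WT-GS cells in 4 of 18 alternatives. Of these, 2 were fits without a KO library. The others, library quality weights and a fit of only the groups compared, called 80.5% and 82.4% of all genes. In KO against WT cells Gclm was called as higher in 1 of 18, a fit without a KO library. It had 45.4 and 50.1 CPM in KO-GS cells, 52.7 and 43.5 CPM in KO cells, 43.6 and 38.0 CPM in WT-GS cells, and 43.9 and 42.8 CPM in WT cells. The whole range over the 8 libraries, 38.0 to 52.7 CPM, was narrower than that of Gclc, 67.7 to 172 CPM.

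Gsr encodes glutathione reductase, which uses NADPH to return oxidised glutathione to its reduced form. It had 48.3 and 44.7 CPM in KO-GS cells, 56.5 and 70.1 CPM in KO cells, 56.95 and 57.7 CPM in WT-GS cells, and 90.7 and 92.3 CPM in WT cells. WT cells stood highest and KO-GS cells lowest, while KO and WT-GS cells overlapped. Gsr fell by 0.67 ± 0.14 on the log2 scale in WT-GS against WT cells (adjusted p = 0.0115), and the call was lost without any one WT or WT-GS library (adjusted p = 0.0818 to 0.0925). In KO-GS against KO cells the log2 difference was -0.45 ± 0.14 (adjusted p = 0.0724), called as lower at -0.57 without KO replicate 1 and at -0.27 without KO replicate 2. The test of the difference between the responses gave 0.23 ± 0.20 (adjusted p = 0.499). Gsr was 1.44-fold lower in KO against WT cells (log2 -0.53 ± 0.14, adjusted p = 0.0216), at -0.43 without KO replicate 1 and -0.70 without KO replicate 2, and was called in 10 of 18 alternatives. The log2 difference in KO-GS against WT-GS cells was -0.30 ± 0.14 (adjusted p = 0.112).

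Srxn1 had the largest knockout difference of the 9 genes. Sulfiredoxin returns overoxidised 2-cysteine peroxiredoxins to their active form. The gene had 166.0 and 165 CPM in KO-GS cells, 127 and 183 CPM in KO cells, 25.9 and 26.0 CPM in WT-GS cells, and 38.1 and 37.9 CPM in WT cells. All knockout libraries lay above all wild-type libraries, with the lowest of them, KO replicate 1, at 127 CPM and the highest wild-type library at 38.1 CPM. Srxn1 was higher by 2.67 ± 0.19 on the log2 scale in KO-GS against WT-GS cells (adjusted p = 4.28e-05). In KO against WT cells it was higher by 2.03 ± 0.18 (adjusted p = 0.00018), at 2.23 without KO replicate 1 and 1.73 without KO replicate 2. Both differences were called in 18 of 18 alternatives. The log2 difference was 0.09 ± 0.18 in KO-GS against KO cells (adjusted p = 0.761) and -0.55 ± 0.18 in WT-GS against WT cells (adjusted p = 0.0526, called as lower in 8 of 18 alternatives).

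Txnrd1 encodes the cytosolic thioredoxin reductase, which passes electrons from NADPH to thioredoxin. It had 316 and 322 CPM in KO-GS cells, 333 and 234 CPM in KO cells, 289 and 266 CPM in WT-GS cells, and 299.3 and 299 CPM in WT cells. The 2 KO libraries spanned the whole range of the 8 libraries. No comparison called the gene; the log2 values were 0.17 ± 0.18 in KO-GS against KO cells, -0.11 ± 0.18 in WT-GS against WT cells, 0.20 ± 0.17 in KO-GS against WT-GS cells and -0.08 ± 0.18 in KO against WT cells. It was called as higher in 4 of 18 alternatives in KO-GS against WT-GS cells. Of these, 2 were fits without a KO library. The others, library quality weights and a fit of only the groups compared, called 80.5% and 82.4% of all genes. Without KO replicate 1 the Txnrd1 log2 value was 0.47 in KO-GS against KO cells and -0.40 in KO against WT cells.

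Nqo1 encodes a quinone reductase whose mRNA is widely used as a readout of NRF2, and it had the lowest counts of the 9, 1902 over the 8 libraries. It had 14.2 and 12.5 CPM in KO-GS cells, 11.1 and 17.9 CPM in KO cells, 6.38 and 4.81 CPM in WT-GS cells, and 10.0 and 9.56 CPM in WT cells. All knockout libraries lay above all wild-type libraries, and WT-GS cells stood lowest. Nqo1 was 2.39-fold higher in KO-GS against WT-GS cells (log2 1.25 ± 0.27, adjusted p = 0.00615), and the call was lost without WT-GS replicate 2 (log2 1.06, adjusted p = 0.0581). In KO against WT cells the log2 difference was 0.58 ± 0.26 (adjusted p = 0.112), at 0.83 without KO replicate 1 and 0.17 without KO replicate 2. In WT-GS against WT cells it was -0.81 ± 0.27 (adjusted p = 0.0545, called as lower in 9 of 18 alternatives). In KO-GS against KO cells the log2 difference was -0.14 ± 0.26 (adjusted p = 0.761).

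The 9 genes were compared by their patterns, taken as log2 CPM centred on its mean over the 8 libraries, with the root-mean-square difference between 2 genes as the measure of likeness. This is a description over 8 libraries that differ in depth, genotype and medium. Txnrd1 and Gclm were nearest to each other (0.119), as were Keap1 and Gsr (0.195), and Nfe2l2 lay nearest to Gclm (0.188). Hmox1 had no near neighbour among the 9; its nearest, Gclc, lay at 1.10. Srxn1 lay nearest to Nqo1 (0.744), Nqo1 nearest to Nfe2l2 (0.473) and Gclc nearest to Txnrd1 (0.490). Among all genes tested, the nearest to Hmox1 were Hspa5, which encodes the endoplasmic reticulum chaperone BiP (0.166), Slc25a33, a mitochondrial pyrimidine nucleotide carrier (0.292), and Chka, a choline kinase (0.318). Hspa5 had 3775 and 3534 CPM in KO-GS cells, 554 and 647 CPM in KO cells, 2979 and 3192 CPM in WT-GS cells, and 883 and 902 CPM in WT cells, the same order of groups as Hmox1. The nearest to Nfe2l2 were Rab7 (0.0680), Pkn2 (0.0723) and Prkca (0.0744), and the nearest to Txnrd1 were Spg20 (0.0651), Cdk9 (0.0668) and Cd34 (0.0686). The measure is not scaled by how much a gene varies, so genes that vary little lie near each other. In KO replicates 1 and 2, Txnrd1 had 333 and 234 CPM, Spg20 103 and 69.3, Cdk9 114 and 79.6, and Cd34 518 and 328. Nfe2l2 had 210.05 and 146 CPM there, Rab7 343 and 255, Pkn2 318 and 199, and Prkca 206 and 148. The part of this gap between the KO libraries in the likeness was not tested.

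**Figure D3:**
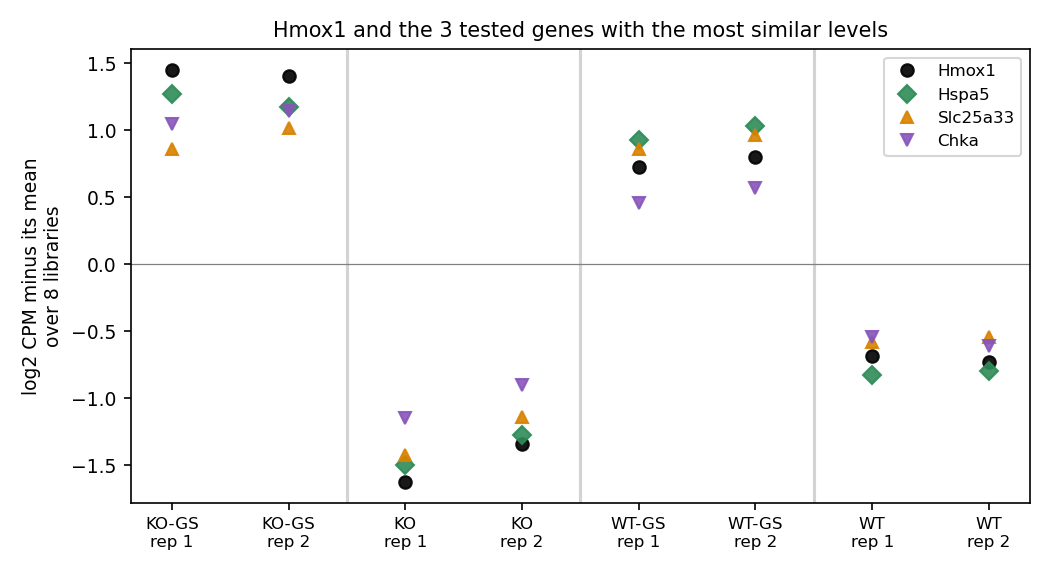
Log2 CPM minus its mean over the 8 libraries (y axis) for Hmox1 and the 3 tested genes nearest to it, Hspa5, Slc25a33 and Chka, in each library (x axis, grouped as KO-GS, KO, WT-GS, WT). All 4 genes are above their mean in the 4 starved libraries and below it in the 4 rich-medium libraries, lowest in KO cells.

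The wider network was read from 56 genes in 7 lists, of which 55 were tested and Gpx7 had too few counts. In KO-GS against KO cells 7 were called higher and 10 lower, in WT-GS against WT cells 6 higher and 16 lower, in KO-GS against WT-GS cells 22 higher and 8 lower, and in KO against WT cells 21 higher and 10 lower. The difference between the starvation responses was called for 5 in each direction. These counts, and those of each list below, are to be read against the shares of all genes. Of all genes tested, 8.44% were called higher and 9.78% lower in KO-GS against KO cells, 14.8% and 18% in WT-GS against WT cells, 27.8% and 26.8% in KO-GS against WT-GS cells, 23.4% and 20.6% in KO against WT cells, and 7.42% and 5.91% for the difference. The median log2 fold change of the 55 was -0.10, -0.15, 0.45 and 0.12 in those 4 comparisons and 0.30 for the difference. The counts depended on the KO libraries: without KO replicate 1, KO against WT called 29 higher and 20 lower, and KO-GS against KO called 12 higher and 25 lower, while without KO replicate 2 they called 22 higher and 28 lower, and 26 higher and 19 lower. All genes tested were called more often in those fits too, 65.8% and 72.7% of them in KO against WT cells and 49.8% and 59.1% in KO-GS against KO cells. With 1 library of another group left out, the calls among the 55 numbered 4 to 13 in KO-GS against KO cells (1.85% to 9.16% of all genes), 10 to 15 in WT-GS against WT cells (11.1% to 22.7%), 18 to 26 in KO-GS against WT-GS cells (35.9% to 47.1%), 17 to 24 in KO against WT cells (23.6% to 35.2%) and 2 to 3 for the difference (3.17% to 3.41%). Among the 2 genes with the smallest p of each list and comparison, and Sqstm1, 35 called differences rest on the KO group. All 70 of their values without 1 KO library kept direction, with a median shift of 0.11 and a largest shift of 0.85 on the log2 scale. These genes were picked for their small p in the same data, so their kept direction is no separate support. Glutathione transferases, peroxiredoxins, thioredoxin and ferritin have near-identical copies or pseudogenes with which reads can be shared, so their values are less certain.

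**Figure D4:**
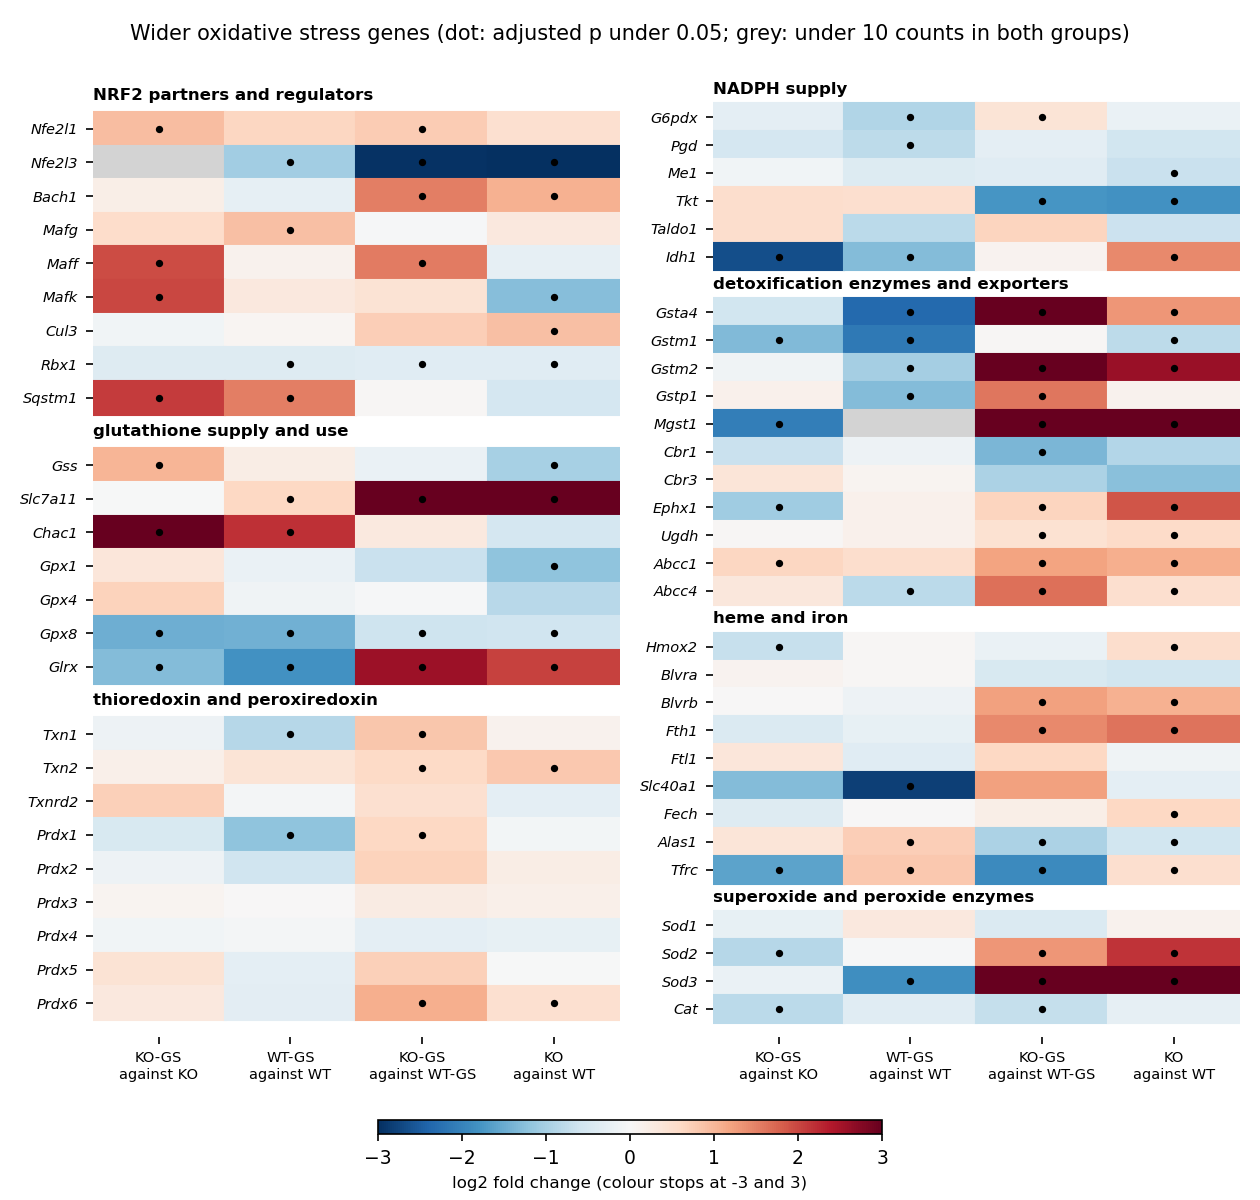
Log2 fold change (colour, stopping at -3 and 3) of 55 oxidative stress genes (rows, by list) in 4 comparisons (columns); a dot marks an adjusted p under 0.05, and grey cells have under 10 counts in both groups. Red prevails in the KO-GS against WT-GS column (22 higher, 8 lower) and blue among the calls in the WT-GS against WT column (6 higher, 16 lower).

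Among 9 partners and regulators of NRF2, 4 were called in KO-GS against KO cells, all as higher. The genes not called there went in both directions. In WT-GS against WT cells 2 rose and 2 fell. Of all genes tested, 8.44% were called higher and 9.78% lower in KO-GS against KO cells, and 14.8% and 18% in WT-GS against WT cells. The small MAF genes Mafk and Maff, whose products pair with NRF2 or with BACH1, rose by 2.01 ± 0.21 and 1.96 ± 0.26 on the log2 scale in KO-GS against KO cells (adjusted p = 0.00194 and 0.00426). Mafk had 45.6 and 50.7 CPM in KO-GS cells, 9.48 and 14.1 CPM in KO cells, 36.3 and 35.5 CPM in WT-GS cells, and 28.6 and 29.3 CPM in WT cells. The response in KO cells exceeded that in WT cells by 1.70 ± 0.28 for Mafk and 1.82 ± 0.35 for Maff (adjusted p = 0.0103 and 0.0183). Without 1 KO-GS library the Maff rise lost its call (adjusted p = 0.0508 and 0.0510), and without any one WT, WT-GS or KO-GS library so did both differences (adjusted p = 0.0551 to 0.0716 for Mafk and 0.0854 to 0.103 for Maff). Sqstm1, whose product p62 draws KEAP1 into autophagy, rose in WT-GS against WT cells by 1.54 ± 0.28 (adjusted p = 0.00657) and in KO-GS against KO cells by 2.11 ± 0.29 (adjusted p = 0.00464). Its rise in KO-GS cells was 1.73 without KO replicate 1 and 2.68 without KO replicate 2. Mafg rose in WT-GS against WT cells by 0.91 ± 0.22 (adjusted p = 0.0193). The Sqstm1 calls were lost in WT-GS against WT cells without either WT library (adjusted p = 0.0583 and 0.0628) and in KO-GS against KO cells without either KO-GS library (adjusted p = 0.0511 and 0.0513), and that of Mafg without any one WT or WT-GS library (adjusted p = 0.0944 to 0.132). Between genotypes 3 were higher and 2 lower in KO-GS against WT-GS cells, and 2 were higher and 3 lower in KO against WT cells. Bach1, the repressor of Hmox1, had 78.3 and 82.9 CPM in KO-GS cells, 73.3 and 67.6 CPM in KO cells, 28.3 and 27.6 CPM in WT-GS cells, and 33.7 and 33.4 CPM in WT cells. It was higher by 1.53 ± 0.13 in KO-GS against WT-GS cells and by 1.07 ± 0.12 in KO against WT cells (adjusted p = 7.91e-05 and 0.000574). The NRF2 relative Nfe2l3 was lower by 2.97 ± 0.46 and 3.00 ± 0.44 on the log2 scale in these comparisons, on 2 to 7 counts in each knockout library and 23 to 63 in each wild-type library. The partners had a median log2 fold change of 0.56 in KO-GS against KO, 0.14 in WT-GS against WT, 0.42 in KO-GS against WT-GS and -0.26 in KO against WT cells. This median was 0.52 without KO replicate 1 and 0.96 without KO replicate 2 in KO-GS against KO cells, and 0.03 and -0.36 without them in KO against WT cells.

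Of 7 tested genes of glutathione supply and use, 2 rose and 2 fell in KO-GS against KO cells, and likewise in WT-GS against WT cells. Of all genes tested, 18.2% and 32.9% were called in these comparisons. Chac1, a glutathione-degrading enzyme of the integrated stress response, rose by 3.01 ± 0.37 on the log2 scale in KO-GS against KO cells (adjusted p = 0.00344), a value of 2.56 without KO replicate 1 and 3.86 without KO replicate 2. It rose by 2.19 ± 0.35 in WT-GS against WT cells (adjusted p = 0.00401), a call lost without WT replicate 2 (adjusted p = 0.0513). Glrx, a glutaredoxin, fell by 1.30 ± 0.16 in KO-GS against KO cells and by 1.83 ± 0.17 in WT-GS against WT cells (adjusted p = 0.00381 and 0.000615). Gpx8 fell by 1.44 ± 0.20 in WT-GS against WT cells and likewise in KO-GS against KO cells (log2 -1.46 ± 0.21, adjusted p = 0.00515). The Glrx call in KO-GS against KO cells was lost without either KO-GS library (adjusted p = 0.0569 and 0.0638). Between genotypes 2 were higher and 1 lower in KO-GS against WT-GS cells, and 2 higher and 3 lower in KO against WT cells. The shares of all genes called were 54.6% and 44%. Slc7a11, the cystine importer that supplies cysteine for glutathione, had 81.4 and 85.1 CPM in KO-GS cells, 85.5 and 83.2 CPM in KO cells, 8.77 and 10.4 CPM in WT-GS cells, and 5.67 and 6.77 CPM in WT cells. The genotypes did not overlap, and the log2 difference was 3.12 ± 0.16 in KO-GS against WT-GS cells and 3.76 ± 0.17 in KO against WT cells (adjusted p = 1.38e-05 and 1.17e-05). Glrx was higher by 2.58 ± 0.18 and 2.05 ± 0.17 in the same 2 comparisons. The glutathione genes had a median log2 fold change of 0.37 in KO-GS against KO, -0.12 in WT-GS against WT, -0.02 in KO-GS against WT-GS and -0.61 in KO against WT cells. Leaving out KO replicate 1 gave 0.02 in KO-GS against KO and -0.21 in KO against WT cells, and leaving out KO replicate 2 gave 0.89 and -1.37.

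Of 9 thioredoxin and peroxiredoxin genes, 0 were called in KO-GS against KO cells, where edgeR gave an unadjusted p under 0.05 for 1 gene, Prdx1 (log2 -0.48 ± 0.16, adjusted p = 0.0741), DESeq2 called 1 and limma-voom 0. This count depended on which KO library was kept, as did the sign of the median given below. Of all genes tested, 18.2% were called in KO-GS against KO cells and 32.9% in WT-GS against WT cells. In WT-GS against WT cells 2 fell, Prdx1 by 1.20 ± 0.16 and Txn1 by 0.85 ± 0.25 on the log2 scale (adjusted p = 0.00195 and 0.0373). Higher in KO-GS against WT-GS cells were 4, among them Prdx6 by 1.09 ± 0.16 and Txn2 by 0.59 ± 0.14, and in KO against WT cells these 2 were the genes called, both as higher. Of all genes tested, 54.6% were called in KO-GS against WT-GS cells and 44% in KO against WT cells. The KO against WT count also depended on which KO library was kept. The Prdx6 difference there, 0.48 ± 0.16, was 0.62 without KO replicate 1 and 0.24 without KO replicate 2. Leaving out 1 WT, WT-GS or KO-GS library ended the calls of Txn1 in WT-GS against WT cells (adjusted p = 0.0745 to 0.215) and Prdx6 in KO against WT cells (adjusted p = 0.0808 to 0.203), and leaving out 1 WT-GS or KO-GS library that of Txn2 in KO-GS against WT-GS cells (adjusted p = 0.0513 to 0.0783). The thioredoxin genes had a median log2 fold change of 0.09 in KO-GS against KO, -0.29 in WT-GS against WT, 0.63 in KO-GS against WT-GS and 0.13 in KO against WT cells. This median was -0.04 without KO replicate 1 and 0.36 without KO replicate 2 in KO-GS against KO cells, and 0.43 and -0.32 without them in KO against WT cells. In NADPH supply, 1 of 6 genes fell in KO-GS against KO cells and 3 fell in WT-GS against WT cells. Idh1, a cytosolic NADPH-forming dehydrogenase, fell by 2.66 ± 0.13 in KO-GS against KO and by 1.31 ± 0.12 in WT-GS against WT cells (adjusted p = 0.000251 and 0.000558), and these responses differed by -1.35 ± 0.17 (adjusted p = 0.00399). G6pdx, the entry enzyme of the pentose phosphate pathway, fell by 0.90 ± 0.12 in WT-GS against WT cells (adjusted p = 0.00193). Tkt, a transketolase of the same pathway, was lower by 1.78 ± 0.25 in KO-GS against WT-GS cells and by 1.81 ± 0.25 in KO against WT cells on the log2 scale, while Idh1 was higher by 1.45 ± 0.12 in KO against WT cells. The NADPH genes had a median log2 fold change of -0.19 in KO-GS against KO, -0.79 in WT-GS against WT, -0.10 in KO-GS against WT-GS and -0.61 in KO against WT cells. Leaving out KO replicate 1 gave -0.15 in KO-GS against KO and -0.25 in KO against WT cells, and leaving out KO replicate 2 gave -0.17 and -0.71.

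Of 11 detoxification enzymes and exporters, 8 were higher and 1 lower in KO-GS against WT-GS cells, and 7 were higher and 1 lower in KO against WT cells, where 27.8% and 23.4% of all genes were called higher. Gstm2, a glutathione transferase, had 36.7 and 37.0 CPM in KO-GS cells, 34.8 and 45.1 CPM in KO cells, 3.75 and 2.84 CPM in WT-GS cells, and 6.55 and 6.77 CPM in WT cells. It was higher by 3.49 ± 0.22 and 2.59 ± 0.21 on the log2 scale in KO-GS against WT-GS and in KO against WT cells (adjusted p = 2.64e-05 and 0.000108), and Gsta4 by 3.08 ± 0.21 in KO-GS against WT-GS cells. Mgst1, a microsomal glutathione transferase, had 320 counts over the KO-GS libraries and 0 over the WT-GS libraries, at least 119.5-fold higher when 3 counts are allowed over the WT-GS group, and 883 counts over the KO libraries against 4 over the WT libraries. During starvation 1 rose and 3 fell in KO-GS against KO cells, with Gstm1 lower by 1.32 ± 0.24 and Ephx1 by 1.07 ± 0.19 (adjusted p = 0.0117 for both). Both were lost without either KO-GS library (adjusted p = 0.108 and 0.109 for Gstm1, 0.104 and 0.118 for Ephx1). WT-GS against WT cells gave 5 calls, all lower, with Gsta4 lower by 2.32 ± 0.20 on the log2 scale and Gstm1 by 2.14 ± 0.24 (adjusted p = 0.000504 and 0.0011). The detoxification genes had a median log2 fold change of -0.12 in KO-GS against KO, -0.82 in WT-GS against WT, 1.20 in KO-GS against WT-GS and 0.58 in KO against WT cells. This median was -0.30 without KO replicate 1 and -0.04 without KO replicate 2 in KO-GS against KO cells, and 0.58 and 0.66 without them in KO against WT cells. Setting Mgst1 at its bound leaves the median in KO-GS against WT-GS cells as it is, since the gene stays above it.

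Of 9 heme and iron genes, 2 were called in KO-GS against KO cells, both as lower, and 2 rose and 1 fell in WT-GS against WT cells. The genes not called in KO-GS against KO cells went in both directions. Of all genes tested, 8.44% were called higher and 9.78% lower there, and 14.8% and 18% in WT-GS against WT cells. Tfrc, the transferrin receptor that brings iron in, had 136 and 137 CPM in KO-GS cells, 458 and 369 CPM in KO cells, 511 and 509 CPM in WT-GS cells, and 289 and 293 CPM in WT cells. It fell by 1.60 ± 0.14 on the log2 scale in KO-GS against KO cells and rose by 0.81 ± 0.14 in WT-GS against WT cells (adjusted p = 0.00129 and 0.00492), and the difference between the responses was -2.41 ± 0.19 (adjusted p = 0.00105). The rise in WT-GS cells lost its call without either WT library (adjusted p = 0.0550 and 0.0555). Fth1, the heavy chain of the iron store ferritin, had 1523 and 1350.3 CPM in KO-GS cells and 2000 and 1855 CPM in KO cells, against 503 and 556 CPM in WT-GS cells and 635 and 619.99 CPM in WT cells. It was higher by 1.44 ± 0.13 in KO-GS against WT-GS cells and by 1.62 ± 0.13 in KO against WT cells (adjusted p = 0.000137 and 0.000124). In the 2 knockout comparisons 2 of 9 were higher and 2 lower in KO-GS against WT-GS cells, and 5 were higher and 1 lower in KO against WT cells. The heme and iron genes had a median log2 fold change of -0.39 in KO-GS against KO, 0.02 in WT-GS against WT, 0.20 in KO-GS against WT-GS and 0.51 in KO against WT cells. Leaving out KO replicate 1 gave -0.33 in KO-GS against KO and 0.47 in KO against WT cells, and leaving out KO replicate 2 gave -0.43 and 0.54.

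Of 4 superoxide and peroxide enzymes, 2 were called in KO-GS against KO cells, both as lower, where 9.78% of all genes were called lower. Sod2 fell by 0.87 ± 0.12 and Cat by 0.81 ± 0.21 on the log2 scale (adjusted p = 0.00526 and 0.0359). The Sod2 call was lost without either KO-GS library (adjusted p = 0.0744 and 0.0836), and the Cat call without any one WT, WT-GS or KO-GS library (adjusted p = 0.0783 to 0.237). The Cat value was -0.50 without KO replicate 1 and -1.06 without KO replicate 2. The call in WT-GS against WT cells was Sod3, the extracellular superoxide dismutase, which fell by 1.87 ± 0.21 (adjusted p = 0.00102). Sod3 had 202 and 188 CPM in KO-GS cells and 214 and 231 CPM in KO cells, against 1.04 and 0.866 CPM in WT-GS cells and 2.97 and 3.96 CPM in WT cells. It was higher by 7.68 ± 0.22 in KO-GS against WT-GS cells and by 5.99 ± 0.20 in KO against WT cells (adjusted p = 2.43e-06 and 6.24e-06). Sod2, the mitochondrial superoxide dismutase, was higher by 1.33 ± 0.12 and 2.17 ± 0.13 in the same 2 comparisons. Of the 4 enzymes, 2 were called higher and 1 lower in KO-GS against WT-GS cells, and 2 higher and 0 lower in KO against WT cells. The superoxide and peroxide enzymes had a median log2 fold change of -0.53 in KO-GS against KO, -0.20 in WT-GS against WT, 0.45 in KO-GS against WT-GS and 1.14 in KO against WT cells. This median was -0.36 without KO replicate 1 and -0.60 without KO replicate 2 in KO-GS against KO cells, and 1.02 and 1.19 without them in KO against WT cells. Dcn and Thy1, the fibroblast markers described above, likewise lay near 0 in wild-type cells and high in knockout cells, and their part in the Sod3 and Mgst1 differences was not tested.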

How the data were processed

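RNA-seq of 8 libraries was used, and 4 chromatin immunoprecipitation libraries are not analysed here. The deposited values are raw counts of reads per RefSeq transcript (mouse mm9). TopHat2 2.0.9 and bedtools were used, per the submitters' processing notes; no source used here gives the strand, the counted part of a transcript or the handling of reads with several matches. Of 31055 transcript rows, the row with the highest total stood for each of 23366 symbols. Groups and replicate numbers came from the sample titles. Nothing says that replicates were separate cultures, so the p-values reflect the spread of these libraries alone and that spread could be technical. Counts of all replicate pairs differed by more than counting noise (chi-square per degree of freedom 4.51 to 104).

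After filterByExpr of edgeR 4.0.16 (R 4.3.3), 13882 genes were left, and trimmed-mean scaling (TMM) was applied. One quasi-likelihood fit with a mean per group over the 8 libraries (biological coefficient of variation 18.5%) gave 5 contrasts, with Benjamini-Hochberg adjustment over all genes tested. SE is the size of the log2 fold change divided by the square root of F. The limit of 3 counts stands for counting error alone, because the reads carry no molecular identifiers and may repeat a molecule. The 9 genes, the 7 wider lists, the marker lists and the tests were chosen with earlier results of these data known. Of each wider list, the 2 genes with the smallest p in a contrast could be named for it. Values of Sqstm1 and Gpx8 in KO-GS against KO cells and of Chac1 in WT-GS against WT cells were added after they were seen. So were Gpx7, Dcn, Thy1, Lum, Col1a1, Cdh5, Tie1, Kdr, Cd68 and Cd14 themselves. The promoter motifs were chosen after the sequences were seen.

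The alternatives were DESeq2 1.42.0, limma-voom (limma 3.58.1) without and with library quality weights, RLE factors (relative log expression), scaling by total counts, no filter, a filter of 5 CPM in 2 libraries, the replicate number as a block, fitting the compared groups alone, the transcript with the lowest total, and each library left out in turn. The counts per list without each KO library were added after seeing that these libraries lie apart.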

Additional observations from a re-analysis of the deposited data

Results flagged for a closer look

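Hmox1 and Gclc stood out because their starvation responses differed between the genotypes in a direct test of that difference. The Hmox1 response in KO cells (KO-GS against KO, log2 2.90) exceeded that in WT cells (WT-GS against WT, log2 1.47) by 1.43 ± 0.19 (adjusted p = 0.00505), with both KO-GS libraries above both WT-GS libraries and both KO libraries below both WT libraries. It was called in 17 of 17 alternatives. The Gclc response in KO cells (log2 -0.15) was below that in WT cells (log2 1.23) by a difference of -1.38 ± 0.33 (adjusted p = 0.0386). It was called in 11 of 17 alternatives, and the KO libraries on which it rests, at 142 and 82.7 CPM, lie 1.71-fold apart. Groups of 2 libraries allow no test for a single deviating library.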

How the results depend on the processing

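Of 801 values of the 45 gene and comparison pairs under other settings, 651 kept direction and side of the threshold, 51 lost a call, 70 gained one and 29 changed sign. Called in every alternative run were the Hmox1 differences in WT-GS against WT cells, in KO-GS against WT-GS cells and between the responses, and the Srxn1 difference in both knockout comparisons. For 74 pairs of a comparison with a wider gene or Carm1, 0 of 1315 values changed sign and 116 lost a call. The wider genes in them were mostly picked for a small p in the same data, so their kept sign is no separate support.

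The number of the 9 genes called in KO-GS against KO cells was 2 with RLE factors, the stricter filter and DESeq2, and 0 in an edgeR fit of only the groups compared, where 1 had an unadjusted p under 0.05. These fits called 18.4%, 22.5%, 25.9% and 0% of all genes, in the same order. The number of the 9 genes called was 8 in KO-GS against WT-GS cells and 1 in KO against WT cells, both with library quality weights and in a fit of only the groups compared. Those 2 settings called 80.5% and 82.4% of all genes in KO-GS against WT-GS cells and 27% and 24.6% in KO against WT cells. With 1 library left out, the counts ran from 1 to 7 in KO-GS against KO cells, 1 to 7 in WT-GS against WT cells, 2 to 8 in KO-GS against WT-GS cells, 2 to 8 in KO against WT cells and 1 to 7 for the difference between the responses, and the highest came without a KO library. The share of all genes called in these fits ran from 1.85% to 59.1%, 11.1% to 67.2%, 35.9% to 80.3%, 23.6% to 72.7% and 3.17% to 56.4% in the same order. The cause was not tested.

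Every value that changed sign was uncalled in the analysis reported, though not every such change was small. In KO-GS against KO cells the directions of Nfe2l2, Keap1 and Gclc depended on which KO library was kept, with the values given below. Nfe2l2 in WT-GS against WT cells was -0.0129 with RLE factors, -0.00689 with total counts, -0.00638 with no filter, -0.0232 with the stricter filter and -0.0129 with DESeq2. In KO-GS against KO cells, library quality weights gave 0.00675 for Nfe2l2, 0.0503 for Gclc and 0.0590 for Gclm, and limma-voom gave 0.0170 for Gclm. Keap1 in KO-GS against WT-GS cells was -0.0964 with total counts and -0.0500 with the lowest transcript. With 1 library left out, the log2 values in WT-GS against WT cells ran from -0.0319 to 0.0701 for Nfe2l2 and from -0.19 to 0.0133 for Gclm. In KO-GS against KO cells they ran from -0.33 to 0.20 for Nfe2l2, -0.55 to 0.28 for Keap1, -0.40 to 0.28 for Nqo1, -0.48 to 0.31 for Gclc, -0.13 to 0.15 for Gclm, -0.13 to 0.39 for Srxn1 and -0.0558 to 0.47 for Txnrd1, in each case between the 2 fits without a KO library. In KO against WT cells they ran from -0.0366 to 0.27 for Gclm and from -0.40 to 0.15 for Txnrd1. Keap1 in KO-GS against WT-GS cells ran from -0.0129 to 0.0596, and the difference between responses from -0.35 to 0.21 for Nfe2l2 and from -0.0444 to 0.27 for Gclm.

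The replicate numbers did not pair the libraries: the replicate differences correlated by -0.026 to 0.063 between groups. With a replicate block, the 9 genes had 1 call in KO-GS against KO cells, 4 in WT-GS against WT cells, 4 in KO-GS against WT-GS cells, 6 in KO against WT cells and 2 for the difference. The block fit called 15.2%, 29.7%, 53%, 41.8% and 10.7% of all genes in the same order. Total counts moved the median of all genes in KO-GS against WT-GS cells to -0.14, and called 5 of the 9 and 55.2% of all genes. Depth limits Nqo1 most, with 1902 counts over the 8 libraries.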
